A study of Mus musculus with 24 samples.

Results

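A set of 10 genes of squamous epithelium was followed across mouse liver organoids: the keratins Krt4, Krt13, Krt6a, Krt17 and Krt14, the desmosomal cadherin Dsg3, and the cornification genes Lor, Sprr1a, Ivl and Tgm1. All 10 are among the 31053 genes listed for hepatocyte samples and the 25876 listed for cholangiocyte organoids, and 8 are among the 20729 listed for the Smart-Seq libraries, without Krt14 and Dsg3. The genes were chosen by symbol after Lor, Krt4 and Dsg3 had been seen to be higher at later passages of the cholangiocyte organoids, so the passage values of all 10 in those organoids are given as a description, without a test.

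The 24 libraries came from liver cells of adult wild-type BALB/c mice. Cholangiocyte organoids (Cho-Orgs) were grown from liver cells selected with EpCAM beads, in a medium that contains Wnt3a, Noggin and forskolin, and were sequenced at passages P0, P5 and P10. Hepatocyte organoids (Hep-Orgs) were grown from the EpCAM-negative hepatocyte fraction in hepatocyte medium (Hep-Med) with the Notch pathway inhibitor DAPT and dexamethasone, and were sequenced at P1, P5 and P10 beside primary hepatocytes (Pri-Hep). Each of these 7 groups has 3 libraries. Smart-Seq, which amplifies full-length cDNA from small samples, was used on Hep-Orgs picked by shape at P0 from Hep-Med, with 1 library for each of the shapes called grape-like, intermediate and round-like. Levels are in FPKM, fragment counts scaled by gene length and library size, and the 3 tables were scaled separately, so levels in different tables are set side by side and not compared.

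Keratins form the intermediate filaments of epithelia, in pairs of a type I and a type II chain. Simple epithelia such as bile ducts are built on Krt8, Krt18, Krt7 and Krt19, whereas the basal cells of stratified epithelia use Krt5 and Krt14 and their upper layers switch to other pairs, such as Krt4 with Krt13 in the internal stratified epithelia. In the outermost layers of squamous epithelium, transglutaminases link loricrin, involucrin and small proline-rich proteins under the plasma membrane into the cornified envelope, and desmosomes hold neighbouring cells together through cadherins such as desmoglein 3.

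Lor (ENSMUSG00000043165, chr3:92080271-92083142, mm10), Sprr1a (ENSMUSG00000050359, chr3:92483952-92485895) and Ivl (ENSMUSG00000049128, chr3:92570902-92573735) lie on the minus strand of 1 stretch of chromosome 3, the epidermal differentiation complex. Krt13 (ENSMUSG00000044041, chr11:100117327-100121566), Krt14 (ENSMUSG00000045545, chr11:100203162-100207548) and Krt17 (ENSMUSG00000035557, chr11:100256217-100261029) lie in the type I keratin cluster on chromosome 11. Krt6a (ENSMUSG00000058354, chr15:101689910-101694307) and Krt4 (ENSMUSG00000059668, chr15:101918535-101924735) lie in the type II cluster on chromosome 15. Tgm1 (ENSMUSG00000022218, chr14:55700009-55713926) lies on chromosome 14, apart from the other genes.

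The 250 bases before the RefSeq start sites (GRCm38.p6, minus strand) are printed for the 3 genes of the epidermal differentiation complex, all of which had their highest level at P10, and for Krt13, which had it at P5. The windows are chr3:92083143-92083392 for Lor, chr3:92485882-92486131 for Sprr1a, chr3:92573736-92573985 for Ivl and chr11:100121567-100121816 for the first of both listed starts of Krt13. Capitals mark TATAAA, the letters of a TATA box, and TGANTCA, where N is any base. With G or C at N, these are the letters that the AP-1 factors of the Jun and Fos families are known to bind.
Lor: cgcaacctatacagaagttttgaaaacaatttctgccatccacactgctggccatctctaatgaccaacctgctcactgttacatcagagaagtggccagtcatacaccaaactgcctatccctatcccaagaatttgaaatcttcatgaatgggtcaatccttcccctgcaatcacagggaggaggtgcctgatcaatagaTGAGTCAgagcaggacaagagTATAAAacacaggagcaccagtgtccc
Sprr1a: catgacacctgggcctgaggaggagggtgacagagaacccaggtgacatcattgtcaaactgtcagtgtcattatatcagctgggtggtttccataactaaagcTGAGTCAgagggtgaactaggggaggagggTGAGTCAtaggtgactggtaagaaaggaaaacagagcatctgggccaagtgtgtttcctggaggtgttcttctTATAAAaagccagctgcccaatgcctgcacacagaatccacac
Ivl: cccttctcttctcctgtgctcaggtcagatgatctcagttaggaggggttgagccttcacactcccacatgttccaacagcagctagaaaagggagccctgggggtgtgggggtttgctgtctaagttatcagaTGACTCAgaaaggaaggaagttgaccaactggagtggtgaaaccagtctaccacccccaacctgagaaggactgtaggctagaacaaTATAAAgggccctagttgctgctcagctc
Krt13: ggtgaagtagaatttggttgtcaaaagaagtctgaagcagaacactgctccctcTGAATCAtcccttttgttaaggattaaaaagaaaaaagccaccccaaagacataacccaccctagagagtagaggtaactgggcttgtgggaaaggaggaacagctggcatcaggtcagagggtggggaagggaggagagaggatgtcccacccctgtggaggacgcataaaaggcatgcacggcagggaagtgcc
RefSeq promoters were searched for 6 of the 10 genes, those printed above with Krt14 and Tgm1. Krt4, Krt17 and Krt6a had no entry, and Dsg3 was not searched. Both strands were searched, and TGANTCA reads the same on each. Lor, Sprr1a and Ivl each held TATAAA, which was found in 12.4% of 32851 promoters of the same length, and each held TGANTCA, found in 6.75% of them. TATAAA ended 22 bases before the start of Lor, 38 before that of Sprr1a and 24 before that of Ivl. TGANTCA was found once for Lor, ending 42 bases before the start, 2 times for Sprr1a, ending 140 and 110 bases before it, and once for Ivl, ending 110 bases before it. Krt13 held TGANTCA at its first start, ending 190 bases before it, with A at N. At its second start it held TGANTCA 2 times, with C at N, and it held TATAAA at neither. Neither motif was found for Krt14 or for both starts of Tgm1. The windows of Krt14 (chr11:100206031-100206280), of the second Krt13 start and of both Tgm1 starts lie inside the gene spans given above. For Krt14 and Tgm1 the search therefore did not cover the bases before the outer end of the gene. Of 2 shorter motifs searched, GCGTG, the core bound by the aryl hydrocarbon receptor (28.2% of all promoters), was found for Krt14 alone and CACCC, bound by Klf factors (52.0%), for all of the 6 genes but Lor. These matches are a description of letters and not of binding.

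The libraries labelled Pri-Hep did not look like hepatocytes. Alb, the main plasma protein of hepatocytes, ranked between 287 and 321 among the genes of these 3 libraries, with 112 FPKM ± 7.99 (SD, n = 3), whereas Krt19 had 237 ± 6.66 and Epcam 269 ± 5.40 FPKM. The 12 libraries of the hepatocyte table were also nearly alike, with a median Spearman correlation of 0.996 both within and between groups. Library totals were 14068906 to 27160365 fragments for the hepatocyte samples. They were estimated at about 37470000 to 39930000 for the Cho-Orgs and 40080000 to 40380000 for the Smart-Seq libraries. A value of 3 fragments is taken as the floor, which for these genes is 0.0268 FPKM (Dsg3) to 0.265 FPKM (Sprr1a) in the hepatocyte table. This floor covers counting error only, whereas each SD and SE measures the spread between libraries.

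In the Cho-Orgs the 10 genes did not move as 1 block. Lor, Sprr1a and Ivl were highest at P10, Krt4 and Tgm1 were high at both P5 and P10, Dsg3, Krt13 and Krt6a had their highest level at P5, Krt17 was highest at P0, and Krt14 was at or near 0 throughout. The summed level of the 10 genes was 154 to 220.4 FPKM at P0, 464 to 524 at P5 and 1160.2 to 1220.1 at P10. Most of it was from Sprr1a, Krt4 and Krt13 at P0 and P5, and from Sprr1a, Krt4 and Lor at P10. In bulk RNA, fewer cells of a type and less RNA per cell cannot be told apart.

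**Figure D1:**
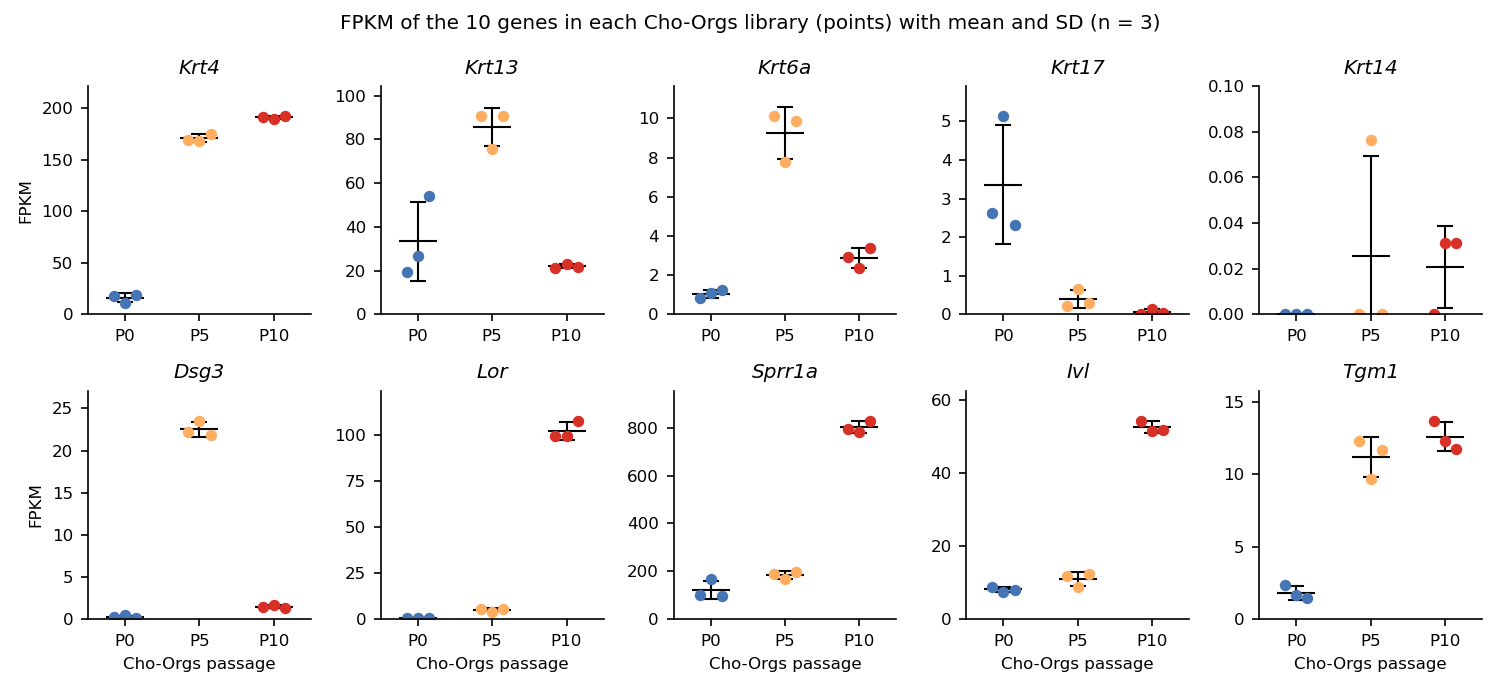
FPKM (y axis, from 0 in each panel) of the 10 genes in the Cho-Orgs, by passage, with 1 point per library and the mean and SD (n = 3; the lower arm of the Krt14 bar at P5 is cut at 0). Lor, Sprr1a and Ivl stand highest at P10, Dsg3, Krt13 and Krt6a at P5 and Krt17 at P0, while Krt4 and Tgm1 are high at both later passages.

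Lor encodes loricrin, the major protein of the epidermal cornified envelope. Its level was 0.565, 0.719 and 0.620 FPKM in the 3 libraries at P0, 5.60, 4.07 and 5.51 at P5, and 99.2, 99.1 and 107.7 at P10. The 3 passages did not overlap. The mean was 7.98 times that of P0 at P5 and 161 times that of P0 at P10, with most of the difference between P5 and P10, where the log2(FPKM + 1) difference was 4.10 ± 0.13 (SE).

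Sprr1a, a small proline-rich protein that serves as a cross-bridge in the envelope, was the most abundant of the 10 genes. Its level was 102, 166 and 97.0 FPKM at P0, 187, 166 and 197 at P5, and 794, 781 and 829.9 at P10. The second P0 library, at 165.7 FPKM, lay just under the lowest P5 library, at 166.4. Without the second library of each passage the log2(FPKM + 1) difference of P5 over P0 was 0.95 in place of 0.63. The mean at P10 was 802 FPKM, or 4.37 times that of P5 and 6.60 times that of P0.

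Ivl encodes involucrin, an early scaffold of the envelope. It had 8.88, 7.52 and 7.90 FPKM at P0, 11.8, 8.67 and 12.2 at P5, and 54.3, 51.6 and 51.6 at P10. P0 and P5 overlapped, while all P10 libraries lay above all others, with a mean 4.81 times that of P5.

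Tgm1, the membrane-bound transglutaminase that crosslinks envelope proteins in keratinocytes, had 2.35, 1.65 and 1.45 FPKM at P0, 12.3, 9.65 and 11.7 at P5, and 13.7, 12.3 and 11.8 at P10. P5 and P10 overlapped, and both lay above P0, with a P10 mean 6.92 times that of P0. Tgm1 therefore reached its later level by P5, before the step between P5 and P10 in Lor, Sprr1a and Ivl.

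Krt4, the type II keratin of the upper layers of internal stratified epithelia, had 17.7, 11.3 and 19.0 FPKM at P0, 169, 168 and 175 at P5, and 191, 189 and 192 at P10. The mean at P5 was 10.7 times that at P0. The step from P5 to P10 was small, 1.12 times, and without overlap between libraries.

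Krt13, its type I partner, had 19.3, 26.8 and 53.9 FPKM at P0, 90.7, 75.6 and 90.6 at P5, and 21.2, 23.1 and 21.8 at P10. The mean at P5 was 2.57 times that at P0 and 3.89 times that at P10, and P0 and P10 overlapped, though not without the first library of each passage. The ratio of the pair thus did not hold over passages, since mean Krt13 was above mean Krt4 at P0 (33.3 against 16.01 FPKM) and below it at P10 (22.0 against 191 FPKM).

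Krt6a, a type II keratin of activated and hyperproliferative epidermis, had 0.822, 1.11 and 1.22 FPKM at P0, 10.1, 7.76 and 9.90 at P5, and 2.94, 2.35 and 3.38 at P10. No libraries of different passages overlapped, and the order of the means was P5, P10 and P0. Reads of Krt6a and its near-identical neighbour Krt6b may have been divided between them by the counting, so both levels are uncertain.

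Dsg3 (ENSMUSG00000056632, chr18:20510304-20541310), a cadherin of desmosomes in stratified epithelium, had the largest ratio of P5 to P0 and to P10 among the 10 genes. Its level was 0.230, 0.436 and 0.167 FPKM at P0, 22.2, 23.5 and 21.9 at P5, and 1.45, 1.66 and 1.28 at P10. The P5 mean was 81.1 times that at P0 and 15.4 times that at P10, and the P10 mean was 5.28 times that at P0, with no overlap between passages. Dsg3 was thus higher at P10 than at P0, yet most of its P5 level was absent at P10.

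Krt17, a type I keratin of skin appendages and wounded epidermis, was highest at P0 and lowest at P10. It had 2.62, 5.14 and 2.33 FPKM at P0, 0.205, 0.659 and 0.303 at P5, and 0.0169, 0.137 and 0.0344 at P10. The P0 mean was 8.65 times the P5 mean, and the P10 values rest on 1, 8 and 2 fragments. Krt14, the type I keratin of basal keratinocytes, was listed at 0 in 6 of the 9 libraries and was at most 0.0763 FPKM, or about 5.1 fragments. Krt14, Krt16 and Krt17 are similar in sequence, and how the authors' counting shared reads between them was not tested.

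Counted by library overlap, 7 of the 10 genes lay in every P5 library above every P0 library, against 36.7% of 11593 genes that had at least 1 FPKM in at least 3 of the 9 libraries, and 1 lay below, against 24.8%. Between P5 and P10, 4 lay above (37.5% of those genes) and 4 below (36.8%). Between P0 and P10, 7 lay above (42.6%) and 1 below (32.6%). The genes were chosen on these libraries, so nothing is read from these counts.

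Other cell markers moved over the same passages. The summed level of 10 hepatocyte markers was 7188 to 8132 FPKM at P0, 148 to 191 at P5 and 22.6 to 25.4 at P10, with Cps1 and Cyp2e1 at 0 in every library of P5 and P10 and Cyp3a11 in every library of P10. The sum of 10 proliferation markers was 365 to 532, 201 to 207 and 82.1 to 89.1 FPKM, with none at 0. The 10 cholangiocyte markers summed to 3917.5 to 5388 FPKM at P0, 1662 to 1699 at P5 and 1100.7 to 1104.5 at P10, with Sctr at 0 in every P10 library. Single markers did not all fall. Of 9 tested with limma, 2 were called higher (22.2%) and 4 lower (44.4%) at P5 than at P0, against 34% and 22.6% of all genes. At P10, 2 were higher (22.2%) and 6 lower (66.7%) than at P0, against 41% and 31.3%. Other sums were highest at P5, as Dsg3, Krt13 and Krt6a were: 6 macrophage markers summed to 42.2 to 48.3, 72.1 to 77.3 and 10.1 to 10.5 FPKM at P0, P5 and P10, and 6 endothelial markers to 0.563 to 1.59, 9.37 to 16.4 and 0.840 to 1.19 FPKM. At P5 these sums were nearly all from Cd68 (74.5 ± 2.59 FPKM) and Tek (13.2 ± 3.60 FPKM), while Adgre1, Clec4f, Lyz2 and Marco were at 0 in every P5 library, and Pecam1, Cdh5 and Lyve1 were at most 0.162 FPKM there. The 6 stellate and mesenchymal markers summed to at most 0.962 FPKM at every passage. Their part in the levels above was not tested.

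The pattern of the squamous keratins was set against the 6 simple epithelial keratins Krt7, Krt8, Krt18, Krt19, Krt20 and Krt23. The 5 squamous keratins together made up 1.40% ± 0.466 of all keratin FPKM at P0 (SD, n = 3), 5.98% ± 0.179 at P5 and 4.34% ± 0.0642 at P10, and the simple keratins made up 98.5%, 93.8% and 95.4%. The summed simple keratins were 3759 FPKM ± 289 at P0, 4173 ± 78.3 at P5 and 4751 ± 37.6 at P10. Among them Krt7, a type II keratin of ducts, was higher at P10 than at P0 by 1.89 ± 0.06 (SE) in log2(FPKM + 1) (limma, adjusted p = 5.57e-09), and Krt8 was lower by 0.34 on that scale (adjusted p = 0.00404). The squamous keratins were thus a minor part of the keratin RNA at every passage.

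**Figure D2:**
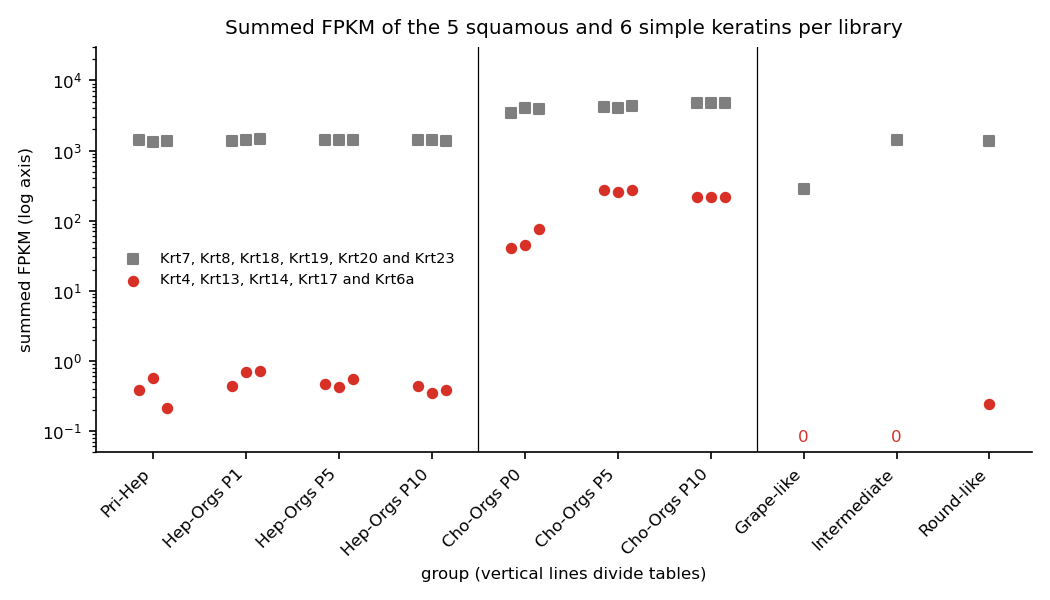
Summed FPKM (log axis) of the 5 squamous keratins (red circles) and the 6 simple keratins (grey squares) in each of the 24 libraries, by group, with vertical lines between the separately scaled tables and a red 0 where the squamous sum is 0. In the Cho-Orgs the squamous sum is far below the simple sum and is highest at P5, with a mean of 266 FPKM, and it is below 1 FPKM in all libraries of the other tables.

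Most neighbours of these genes on the chromosome stayed under 1 FPKM. Between Lor and Ivl the hepatocyte table lists 24 genes (chr3:92080271-92573735), 18 of which are in the cholangiocyte table, and 7 of these reached 1 FPKM in a Cho-Orgs library. Those were Lor, Lelp1, Sprr2a1, Sprr2a2, Sprr2a3, Sprr1a and Ivl. Sprr2a3 was the highest, with 889 ± 204, 1688 ± 36.4 and 875 ± 12.2 FPKM at P0, P5 and P10, a P5 peak beside the P10 peaks of Lor, Sprr1a and Ivl on the same stretch. Sprr2a1, Sprr2a2 and Sprr2a3 are near-identical, and the division of reads between them is uncertain. Sprr1b was listed at 0 in all 9 libraries and Sprr3 stayed at or under 0.325 FPKM.

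Of the 6 keratin genes from Krt13 to Krt17 (chr11:100117327-100261029) in the table, 3 reached 1 FPKM: Krt13, Krt19 and Krt17. Krt15 and Krt16, which lie between them and belong to the basal and activated layers of epidermis, stayed at or under 0.233 FPKM. Of the 19 keratin genes from Krt7 to Krt18 (chr15:101411043-102032027) in the table, 8 did so: Krt7, Krt87, Krt84, Krt6b, Krt6a, Krt4, Krt8 and Krt18. Krt18 is a type I gene placed at the end of that cluster.

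**Figure D3:**
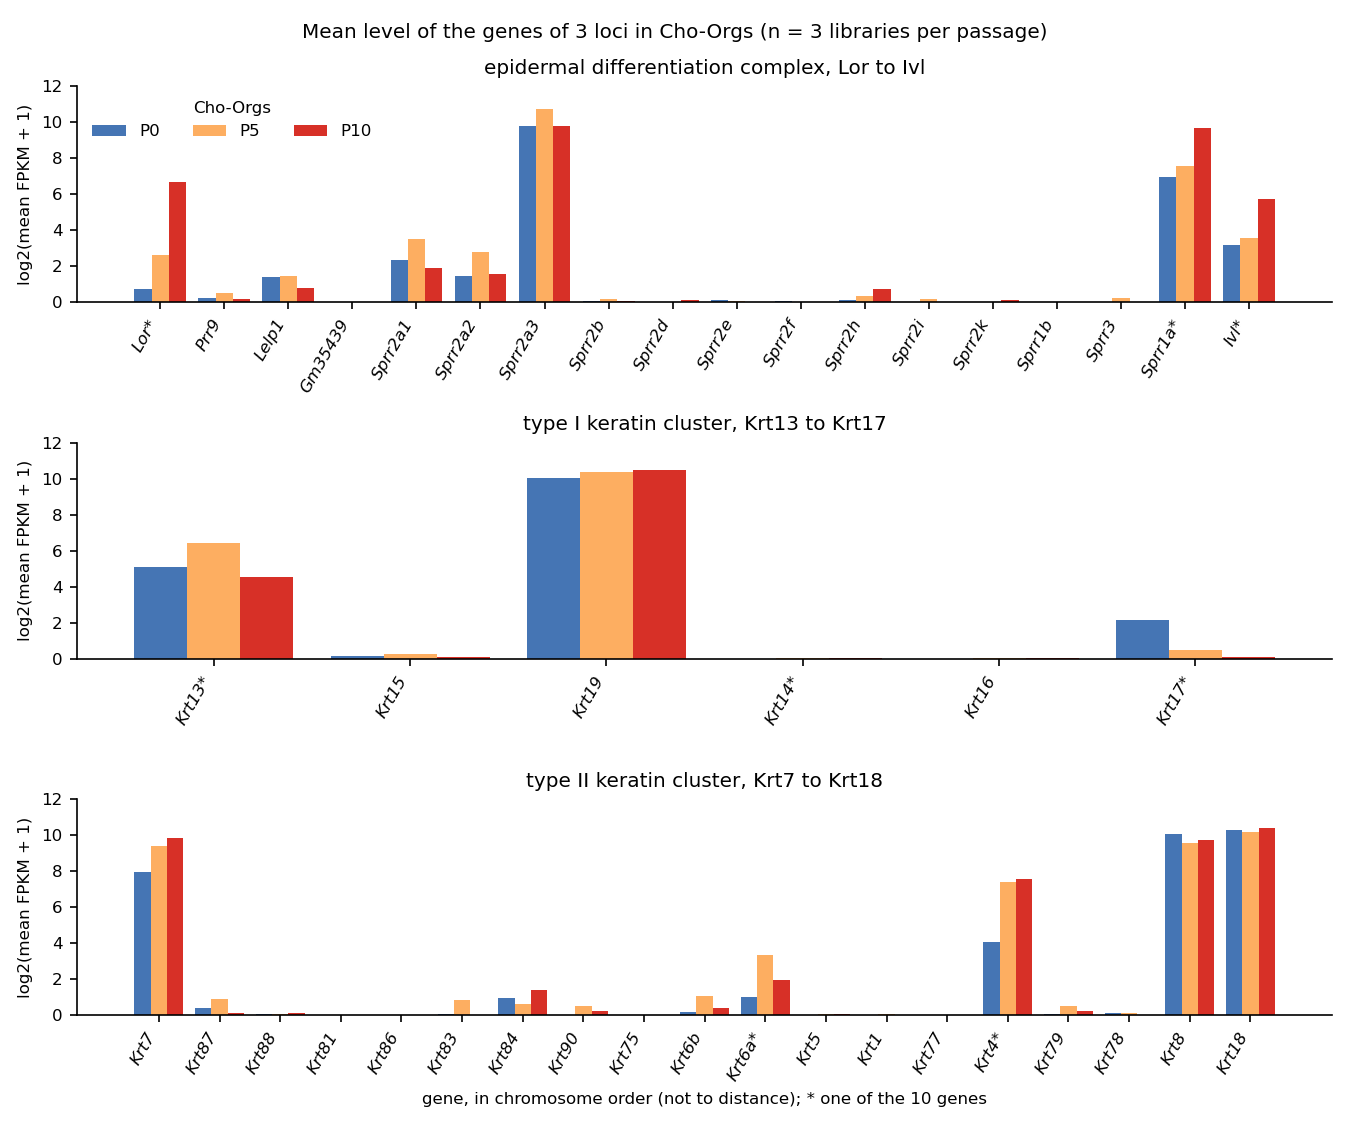
Mean level, as log2(mean FPKM + 1), of the genes of 3 chromosome stretches in Cho-Orgs at P0, P5 and P10 (n = 3 libraries each), in chromosome order and not to distance, with stars on the 10 genes. Lor, Sprr1a and Ivl are highest at P10, and Sprr2a3, Krt13 and Krt6a at P5, among neighbours of which most are near 0.

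Defining genes of keratinocytes were absent or close to it. Trp63, the regulator of stratified epithelia, was listed at 0 in all 9 Cho-Orgs libraries. Krt5 was at most 0.144 FPKM, Krt1 at most 0.0960, Krt10 at most 0.211 and Krt14 at most 0.0763. Dsc3, the desmocollin that accompanies Dsg3 in stratified epithelium, was listed at 0 in all 6 libraries of P5 and P10. The name squamous therefore stands here for the list of genes and not for a cell type.

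Beside the 10, 160 other genes of squamous differentiation in 6 lists were examined. The lists were chosen with earlier results of these data known, so their counts in these libraries are not an independent check on the 10. Of the 160, 66 passed the filter of at least 1 FPKM in at least 3 libraries and were tested with limma over all 11593 genes that passed. The 3 comparisons share libraries, and 56.6% of all genes tested were called between P0 and P5 (61.5% at an unadjusted p under 0.05), 61.5% between P5 and P10 (65.6%) and 72.3% between P0 and P10 (74.3%). At P5, 39 of the 66 were above their P0 level (59.1%) and 12 were lower (18.2%), against 34% and 22.6% of all genes tested, and their median log2 difference was 0.32 against 0.06 for all genes. At P10, 15 were higher than at P5 (22.7%) and 30 were lower (45.5%), against 31% and 30.5%, with a median of -0.19 against 0.01. Without the third library of each passage, 64 of the listed genes were tested. At P10, 9 of them were then higher than at P5 in place of 15, and 21 were lower in place of 30. From P0 to P10, 29 were higher (43.9%) and 20 lower (30.3%), against 41% and 31.3%, which is close to the share over all genes. The counts of genes higher at P10 include Cdsn, which passed the filter only through its P10 libraries. With median-ratio size factors the share of higher genes among all called at P5 against P0 was 47.1% in place of 60%, and the counts in the 6 lists were 33 higher and 14 lower. The hepatocyte and proliferation markers given above moved over the same passages, and their part in the changes of these lists was not tested.

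**Figure D4:**
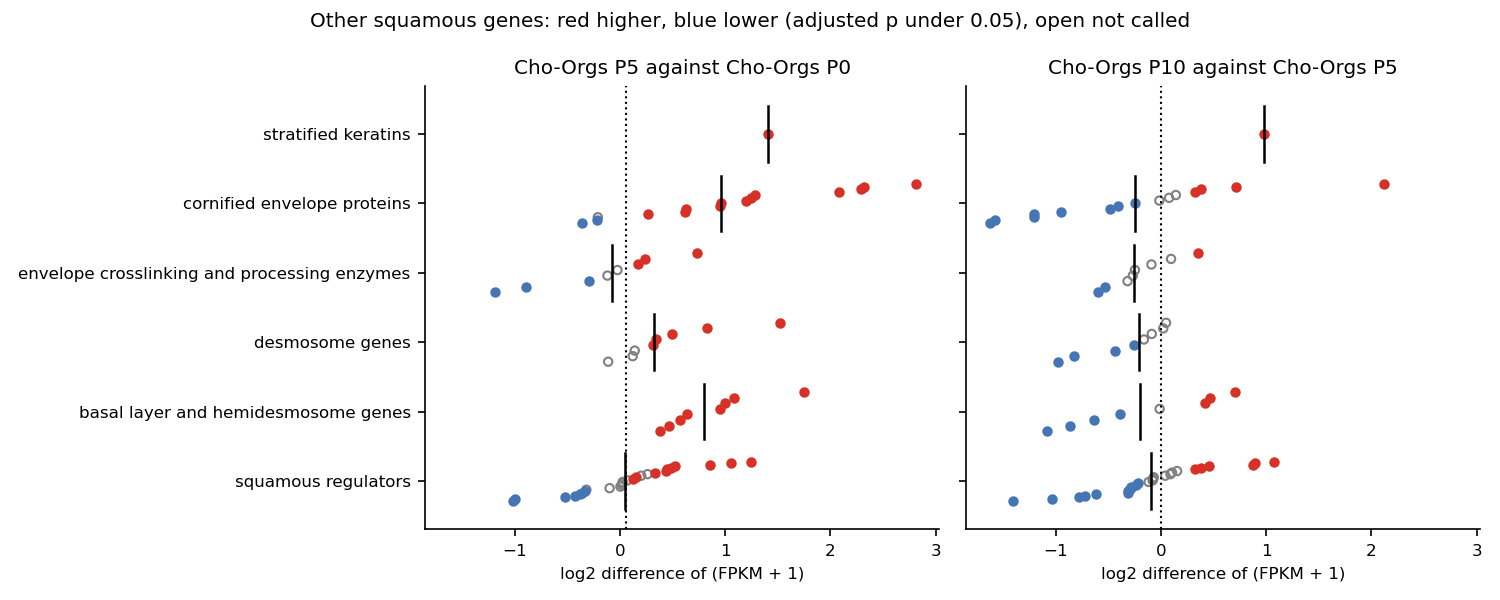
Differences in log2(FPKM + 1) of the 66 tested genes (points) of 6 squamous lists, for Cho-Orgs P5 against P0 (left) and P10 against P5 (right), red where higher and blue where lower at an adjusted p under 0.05 and open where not called, with a bar at each list's median and a dotted line at the median of all 11593 genes. Most cornified envelope and basal genes lie to the right on the left panel, and the medians of 5 of the 6 lists lie left of the dotted line on the right panel.

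The cornified envelope list had a median log2 difference of 0.96 between P0 and P5. Of its 56 genes 15 were tested, of which 12 were higher (80%) and 2 lower (13.3%) in P5 than in P0 organoids. The shares over all genes were 34% and 22.6%. From P5 to P10, 4 were higher (26.7%) and 8 lower (53.3%), against 31% and 30.5% of all genes. S100a14, a calcium-binding protein of the same chromosome region, rose from 22.6 ± 5.87 FPKM at P0 to 97.5 ± 5.03 at P5 and 160.4 ± 2.17 at P10 (P10 against P0, log2 difference 2.80 ± 0.14, SE, limma adjusted p = 7.36e-08). Anxa1, annexin A1, rose from 57.2 ± 7.14 to 136 ± 12.04 and 177 ± 3.53 FPKM. Cdsn, corneodesmosin of the cornified layer, differed from these. It was 0.263 ± 0.153 FPKM at P0 and 0.0880 ± 0.0508 at P5, not called different, and 3.73 ± 0.398 at P10. Its highest level was thus at P10, as for Lor, Sprr1a and Ivl. Cdsn passed the filter only through its P10 libraries, so no test against P10 is given for it. It is still among the genes counted above as higher at P10, in this list and over the 6 lists.

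Ecm1 and Scel were higher at P5 than at P10. Ecm1, an extracellular matrix protein of the skin, went from 7.31 ± 2.56 to 55.6 ± 1.61 and then 23.6 ± 1.52 FPKM, and Scel, sciellin, a precursor of the cornified envelope, from 1.61 ± 0.277 to 11.7 ± 0.117 and 8.59 ± 0.558, and both falls from P5 to P10 passed the test (limma adjusted p = 0.000167 and 0.0016). Sprr2a3 rose from P0 to P5 (log2 difference 0.95 ± 0.13, limma adjusted p = 0.000188) and fell from P5 to P10 by 0.95 (adjusted p = 0.000158), with a difference of 0.00 ± 0.13 between P10 and P0. Of the plakins that line the envelope, Ppl was higher at P10 than at P0 by 0.70 and Evpl lower by 0.46 (limma adjusted p = 1.85e-06 and 0.000618).

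Of 16 other stratified keratins, only Krt80 passed the filter. Krt80, a type II keratin found in several epithelia, rose from 0.894 ± 0.305 FPKM at P0 to 3.97 ± 0.120 at P5 and 8.84 ± 0.616 at P10 (P10 against P0, log2 difference 2.39 ± 0.11, limma adjusted p = 4.74e-08).

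Of 8 tested enzymes of the envelope, 2 were higher (25%, against 41% of all genes) and 5 lower (62.5%, against 31.3%) at P10 than at P0. Ugcg, the glucosylceramide synthase, was 15.6 ± 1.51 FPKM at P0, 26.6 ± 0.598 at P5 and 24.9 ± 0.682 at P10, and like the Tgm1 means it was higher at P5 than at P0 (log2 difference 0.74 ± 0.07, limma adjusted p = 1.3e-05) with no call between P5 and P10. St14, the protease matriptase, was higher at P10 than at P0 by 0.27 ± 0.05 (limma adjusted p = 0.000477). Tgm2, the widely expressed tissue transglutaminase, fell from 107 ± 26.7 FPKM at P0 to 45.7 ± 4.87 at P5 and 36.4 ± 1.90 at P10, and its log2 difference between P0 and P5 was -1.18 ± 0.15 (limma adjusted p = 0.000107). The Tgm1 means were in the opposite order. Smpd1, acid sphingomyelinase, fell from 18.03 ± 3.20 to 7.48 ± 0.381 FPKM between P0 and P10, and Ctsl, cathepsin L, from 123 ± 5.90 to 69.2 ± 0.206.

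Other desmosome genes had a median log2 difference of 0.33 between P0 and P5. Of 8 tested, 5 were higher (62.5%) and none lower in P5 than in P0 organoids, against 34% and 22.6% of all genes. At P10, 4 were lower than at P5 (50%) and none higher, against 30.5% and 31%. Between P0 and P10, 4 were higher (50%) and 3 lower (37.5%), against 41% and 31.3%. Perp, a desmosomal membrane protein with the highest mean of the list over the 9 libraries, was 77.6 ± 7.88 FPKM at P0, 138 ± 3.97 at P5 and 141 ± 3.16 at P10, with a difference of 0.83 ± 0.07 in log2 at P5 against P0 (limma adjusted p = 7.1e-06). Dsg2, the desmoglein of simple epithelia, was higher at P5 than at P0 by 0.50 (adjusted p = 0.000848), and the plakophilin Pkp1 by 1.52 (adjusted p = 4e-05), both with limma.

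All 8 tested genes of the basal layer and hemidesmosome, which anchors epithelia to the basement membrane, rose from P0 to P5, against 34% of all genes. From P5 to P10, 3 were higher (37.5%) and 4 lower (50%), against 31% and 30.5% of all genes. Itgb4, the integrin chain of hemidesmosomes, rose from 25.5 ± 1.26 FPKM at P0 to 51.9 ± 0.855 and 72.0 ± 3.08 (P10 against P0, log2 difference 1.46 ± 0.05, limma adjusted p = 1.15e-08). Itga3, an integrin alpha chain, rose from 80.8 ± 12.3 to 205 ± 6.78 FPKM between P0 and P10. Lamb3, a laminin beta chain, went from 9.80 ± 1.02 to 35.3 ± 1.08 at P5 and 22.3 ± 1.31 at P10, and Cd44, with the highest mean of the list over the 9 libraries though not at P10, from 142 ± 21.2 to 211 ± 7.49 and 115 ± 1.22.

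Of 26 tested regulators of squamous differentiation, 10 were higher (38.5%) and 7 lower (26.9%) at P5 than at P0, close to the 34% and 22.6% of all genes. At P10, 7 were higher (26.9%) and 9 lower (34.6%) than at P0, against 41% and 31.3%. Fosl1, an AP-1 subunit, rose from 0.923 ± 0.411 FPKM at P0 to 2.95 ± 0.393 at P5 and 6.37 ± 1.04 at P10 (P10 against P0, limma adjusted p = 2.12e-06), and Grhl1, a grainyhead factor of epidermal differentiation, from 1.96 ± 0.208 to 4.35 ± 0.370 and 5.68 ± 0.317. Jun, another AP-1 subunit, fell from 20.5 ± 3.65 to 9.56 ± 0.782 and 7.66 ± 0.349 FPKM (limma adjusted p = 2.9e-06 for P10 against P0). Elf3, an epithelial Ets factor with the highest mean of the list over the 9 libraries though not at P10, was 201 ± 10.4, 223 ± 12.9 and 83.5 ± 2.60 FPKM, and fell by 1.41 in log2 between P5 and P10. Barx2, a homeobox factor, fell from 1.94 ± 0.210 FPKM at P0 to 0.0643 ± 0.0622 at P10. Klf4, needed for the epidermal barrier, was between 13.1 and 15.8 FPKM in all 9 libraries.

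The genes whose levels followed Lor, Krt4 and Dsg3 most closely were found by Pearson correlation of log2(FPKM + 1) over the 9 Cho-Orgs libraries, among 2186 genes that passed the filter and spanned at least 1 in log2 between passage means. Genes with Gm, Rik or LOC symbols were passed over. The 9 points fall into 3 passages, so these values describe patterns over passages. For Lor they were Prxl2a, Sh3d19, Cbx7, Adgre5 and Antxr2, with r from 0.998 to 0.9996, and Prxl2a had means of 60.8, 127 and 618 FPKM at P0, P5 and P10. For Krt4 they were Npnt, Hnrnpdl, Sox21, Tamalin and Dusp4, with r from 0.992 to 0.996, and Sox21 had 0.717, 5.32 and 6.82 FPKM. For Dsg3 they were Akap5, Gclc, Aqp5, Eif4a3l1 and Parvb, with r from 0.988 to 0.992, and Aqp5 had 589, 1573 and 742 FPKM. Among the 10 genes themselves, Lor had r of 0.98 with Sprr1a and with Ivl, Krt4 had 0.99 with Tgm1, and Dsg3 had 0.97 with Krt6a, while Lor and Dsg3 had 0.01.

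In the hepatocyte table only Ivl and Sprr1a were above 1 FPKM. Ivl was the highest, with 31.9, 34.3 and 33.6 FPKM in the libraries labelled Pri-Hep, 35.8, 37.4 and 36.1 in Hep-Orgs at P1, 33.8, 35.7 and 36.1 at P5, and 36.2, 35.3 and 33.1 at P10. Sprr1a had 22.8, 24.1 and 22.5 FPKM in the libraries labelled Pri-Hep, 23.8, 27.3 and 27.1 at P1, 25.2, 23.7 and 24.3 at P5, and 28.3, 26.0 and 22.5 at P10. The groups overlapped for both genes except Ivl at P1, where all 3 libraries lay above those labelled Pri-Hep.

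Lor was between 0.529 and 0.961 FPKM in the 12 libraries, with a median of 0.746 and 18 to 31 fragments. Krt17 was between 0.108 and 0.649 FPKM, Tgm1 between 0.0174 and 0.175, and Krt4 between 0 and 0.151. Krt13 was at 0 in 10 of the 12 libraries and Krt6a in 10, with at most 2 fragments, Dsg3 was at 0 in 9, and Krt14 in all 12, where 3 fragments would be 0.0626 to 0.122 FPKM. The values of Tgm1, Krt4, Krt13, Krt6a and Dsg3, from 0 to 10 fragments, are at the limit of this depth. Sprr2a3, the highest of the other squamous genes in Cho-Orgs, was between 2.58 and 3.17 FPKM here.

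Only Ivl and Sprr1a passed the filter of at least 1 FPKM in at least 3 libraries, and neither was called in any of 7 comparisons of passages and the libraries labelled Pri-Hep, by limma over 10986 genes. Of those genes 0.0091% were called for P1 and 0.0091% for P5 against Pri-Hep (1 gene each), 0.0273% for P10 against P5 (0.0182% higher and 0.0091% lower), and 0% in the other 4 comparisons. The smallest adjusted p were 0.389 for Ivl (log2 difference 0.13 ± 0.04, P1 against Pri-Hep) and 0.563 for Sprr1a (0.16 ± 0.07, the same comparison). At an unadjusted p under 0.05, both passed in P1 against Pri-Hep, where 8.29% of all genes did, and in all 9 Hep-Orgs against Pri-Hep, where 8.79% did, and neither in the other 5 comparisons, where 10.8% (P5 against Pri-Hep), 6.64% (P10 against Pri-Hep), 3.97% (P5 against P1), 8.98% (P10 against P1) and 11.5% (P10 against P5) did. With the replicate number as a block, limma gave Sprr1a an unadjusted p of 0.0591 in place of 0.0483 in all Hep-Orgs against Pri-Hep, so that 1 gene passed there. With no filter on low values, 9 of the genes could be tested and none was called.

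**Figure D5:**
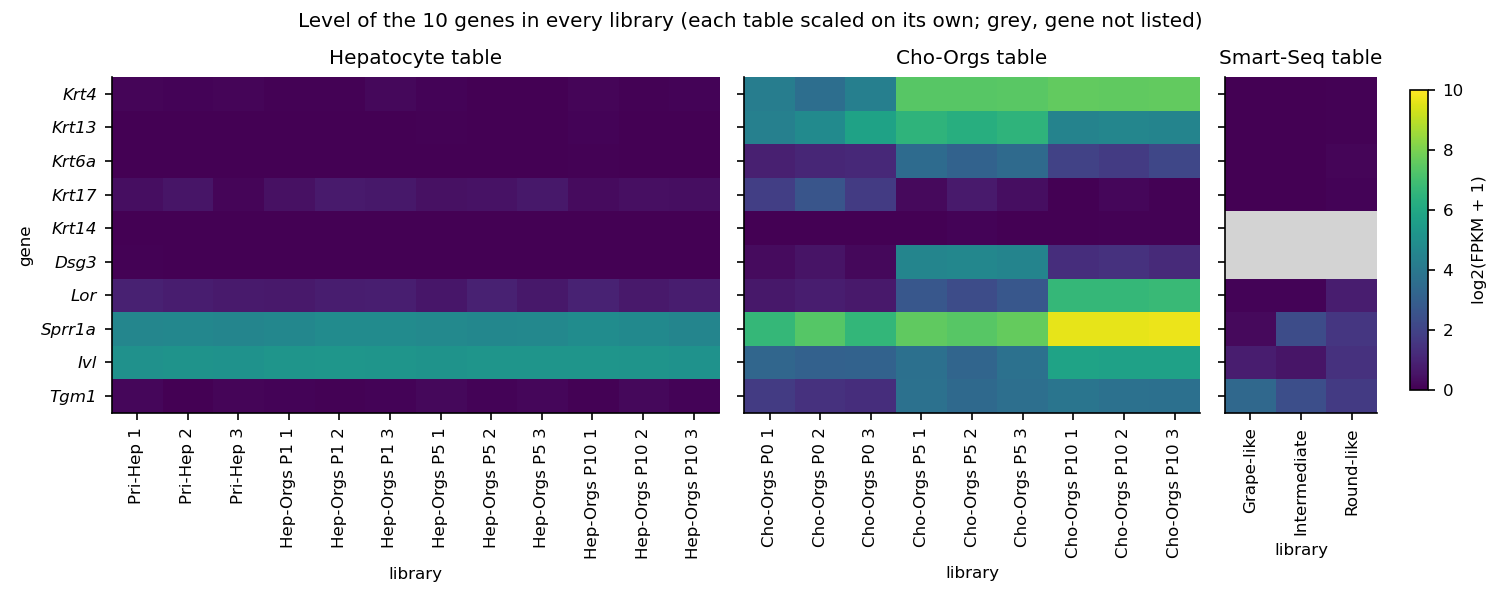
Level of the 10 genes as log2(FPKM + 1), in colour, in each of the 24 libraries, by table (grey, gene not listed). Ivl and Sprr1a are the only rows with a clear level in the hepatocyte table, the passages stand apart in the Cho-Orgs table, and Tgm1 is highest in the grape-like library of the Smart-Seq table.

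In the Smart-Seq libraries, with 1 library per subtype and so no replicate check, Tgm1 was highest in the grape-like library and Lor and Ivl in the round-like one. Tgm1 had 9.44 FPKM in grape-like, 4.22 in intermediate and 2.29 in round-like Hep-Orgs, from about 1196, 539 and 292 fragments. Lor had 0.0562, 0.0836 and 0.740 FPKM, from about 4, 6 and 53.1 fragments, and Ivl 0.742, 0.487 and 1.71. Sprr1a had 0.190, 4.08 and 2.01 FPKM and was highest in the intermediate library. Krt4, Krt13, Krt17 and Krt6a were listed at 0 in the grape-like and intermediate libraries and at 0.0285 to 0.0879 FPKM in the round-like one, from about 2.1 to 8.6 fragments.

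In the Smart-Seq libraries 12595 genes had at least 1 FPKM in a library, and of the 10 genes only Sprr1a, Ivl and Tgm1 were among them. By a difference of at least 1 in log2(FPKM + 1), 1 of these (Sprr1a) was higher in round-like than in grape-like, against 8.82% of the 12595 genes. Another 1 (Tgm1) was higher in grape-like, against 12.9%. Sprr2a3, not one of the 10 and named after its values were seen, was listed at 0, 0.872 and 16.1 FPKM. Markers of other cells differed between the same libraries: 6 macrophage markers summed to 7461, 2283 and 1197 FPKM, 6 stellate and mesenchymal markers to 658, 163 and 180.3 FPKM, and 10 hepatocyte markers to 6026, 10329 and 1369 FPKM, in grape-like, intermediate and round-like order, none of them at 0. Their part in these levels was not tested.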

How the data were processed

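Bulk poly(A) RNA sequencing gave 21 libraries and Smart-Seq 3. The authors deposited FPKM in 3 tables, and per the labels (the submitters' processing notes) the tools were featureCounts 2.0.3 and edgeR 3.40.2 with the mm10 build. The aligner and annotation release are not given in the sources used here. In the hepatocyte table, FPKM and listed gene length gave whole fragment counts within 0.05 of a whole number. Depth in the other tables was estimated from low values and is approximate. The 10 genes and the 6 squamous lists were chosen with earlier results of these data known.

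Tests covered genes at or above 1 FPKM in 3 or more libraries of a table, on log2(FPKM + 1), a scale that understates changes of low genes, with lmFit and eBayes (trend) of limma 3.58.1 in R 4.3.3, all groups of a table in 1 model without a replicate block. P-values were two-sided and Benjamini-Hochberg adjusted over all genes, with a threshold of 0.05. The scripts were tested on simulated data. The labels do not say whether the 3 replicates per group are separate mice or cultures. In the study, figure legends tie the replicate numbers to mice and the methods speak of independent cultures, so whether same-numbered libraries share a mouse is unsettled, and p-values measure the spread between these libraries. Named genes were the 10 genes, and in each list up to 6 genes per direction called with a difference of at least 1 between P10 and P0 plus the highest gene, and the 5 genes most like Lor, Krt4 and Dsg3. A gene that this rule also names is not reported here. Other genes were named after their values were seen. Alternatives were a pseudocount of 0.1, other filters and scalings, eBayes without trend, a replicate block, fits of only the groups compared, a log2 difference of at least 1, and leaving out each replicate. Python 3.11.15 with pandas 2.3.3, numpy 2.4.6 and matplotlib 3.10.9 was used for summaries and plots.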

Additional observations from a re-analysis of the deposited data

How the results depend on the processing

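Counts of other squamous genes in Cho-Orgs moved most when a log2 difference of at least 1 was also asked for, which by construction leaves fewer genes: 13 higher and 3 lower at P5 against P0, 2 and 7 at P10 against P5, and 12 and 5 at P10 against P0. Cdsn, which passed the filter only through its P10 libraries, is among those higher at P10. With only genes of a mean FPKM of at least 5, they were 9 higher and 18 lower at P10 against P5 and 19 higher at P10 against P0, from fewer genes tested. Leaving out 1 replicate number gave 9 to 12 higher and 21 to 29 lower genes at P10 against P5, with 9 and 21 without replicate 3. It gave 1 to 2 of the 10 genes with every P10 library below every P0 library, with 2 without replicate 1. In Smart-Seq, 2 of the 10 genes were higher in round-like than in grape-like by at least 1 with a pseudocount of 0.1 and after rescaling to TPM. Sprr2a3, with a difference of 0.00 between P10 and P0, was at -0.080 with median-ratio size factors and ranged from -0.14 (without replicate 1) through -0.013 (without replicate 3) to 0.16 when 1 replicate was left out. Of the other values for single genes, 387 were labelled the same. For tested genes this meant the same direction and call. For the 10 genes in Cho-Orgs it meant a log2 difference that moved by less than 1 SD. Where libraries of the 2 passages overlapped, it did not require the same sign. Another 35 log2 differences of the 10 genes in Cho-Orgs moved by more than 1 SD with no change of sign, most with a pseudocount of 0.1 or rescaled to TPM. Same-numbered libraries of different groups had deviation correlations of -0.0741 to 0.119 in the Cho-Orgs and -0.0763 to 0.0548 in the hepatocyte table, and a library matched its own number best in 6 of 18 and 8 of 36 cases. With the replicate block, 36 squamous genes were higher and 12 lower at P5 against P0, of which 36 and 12 were also called without it. At P10 against P5 they were 15 and 31 (15 and 28 shared), and at P10 against P0 30 and 21 (29 and 20 shared). No gene of the 10 was called in the hepatocyte table with or without the block at the adjusted threshold. Values of at most 10 fragments are at the limit of the depth. In the Cho-Orgs these were Krt14 and, at P10, Krt17. In the hepatocyte table they were Tgm1, Krt4, Krt13, Krt14, Krt6a and Dsg3, with some values of Krt17. In the Smart-Seq table they were Krt4, Krt13, Krt17 and Krt6a, with Lor in the grape-like and intermediate libraries and Sprr1a in the grape-like one.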

Other observations

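Of the 16 other stratified keratins, 12 were among the rows of the Cho-Orgs table and 10 of these stayed under 1 FPKM in every library. Krt6b, the close copy of Krt6a, had a mean of 0.120 ± 0.109 FPKM at P0, 1.08 ± 0.316 at P5 and 0.307 ± 0.0745 at P10 (SD, n = 3), the same order of passages as Krt6a, and the 2 cannot be told apart where reads are shared. Krt79, a keratin of hair follicle ducts, was at 0.0645 ± 0.0460, 0.426 ± 0.0826 and 0.165 ± 0.133 FPKM. Krt6b and Krt79 did not pass the filter of the main comparisons, and no test of them is given.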
